A study of Mus musculus with 6 samples.

Results

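The VEGF and angiopoietin ligands and receptors were followed in the inguinal white fat (iWAT) of *Hlx* transgenic mice. Members were chosen by gene symbol: the ligands *Vegfa*, *Vegfb*, *Vegfc*, *Angpt1* and *Angpt2* and the receptors *Flt1*, *Kdr*, *Flt4*, *Nrp1* and *Tek*. Of these 10 genes, 9 had a row of their own among the 19445 gene loci of the table, and *Vegfb* was listed only in a row shared with *Dnajc4*. The transgenic mice (TG) carried an *Hlx* cDNA, which encodes a homeobox transcription factor, behind the *aP2* (*Fabp4*) promoter, and the controls (WT) were their wild-type littermates. The line was made in embryos of a C57BL/6 and SJL cross and backcrossed to C57BL/6, and the number of founder lines behind these samples is not given in the sources used here. The promoter is used as fat-selective, although *Fabp4* is also known from capillary endothelial cells and macrophages. All mice were 12 weeks old, and RNA of the whole fat pad was sequenced from 3 TG and 3 WT mice. Values are FPKM, the read density of a gene scaled by its length and by the mapped reads of the sample, so that levels of different genes can be set side by side.

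Vascular endothelial growth factors are secreted proteins that act on receptor tyrosine kinases of endothelial cells. VEGF-A, made by adipocytes among other cells, binds KDR (VEGFR-2), the main signalling receptor for vessel growth, and FLT1 (VEGFR-1), which binds it tightly but signals weakly. NRP1 is a co-receptor, VEGF-B binds FLT1, and VEGF-C acts through FLT4 (VEGFR-3) on lymphatic vessels. Angiopoietin-1, supplied mostly by cells around the vessel wall, activates TEK (TIE2) and stabilizes vessels, whereas angiopoietin-2, stored in endothelial cells, often opposes it. Brown fat is known for its dense capillary bed.

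Promoter sequences are shown for *Vegfa*, *Vegfb* and the 3 receptors whose groups did not overlap. *Vegfa* had the highest level of the 9 members with a row of their own, and the level of *Vegfb* could not be read alone. The sequences were taken from RefSeq windows of GRCm38.p6, which run from 250 bases before to 50 bases after a transcription start. The 32851 windows included 9 of 8 members, all but *Angpt1* and *Angpt2*. The motifs searched on both strands were the hypoxia response core with letters ACGTG, the ERR response element with letters AAGGTCA, the core of ETS factor sites with letters CCGGAA, the homeodomain core with letters TAATT, the GC box with letters CCGCCC and the TATA box with letters TATAAA. Capitals mark their matches in the runs printed here, each written 5′ to 3′ on the strand of the gene. The *Vegfa* and *Vegfb* runs end at the base before the start, at chr17:46032378-46032577 (minus strand) and chr19:6987652-6987851 (minus strand). The *Kdr* run lies at chr5:75978591-75978620 (minus strand), the *Flt1* run at chr5:147726025-147726054 (minus strand) and the *Nrp1* run at chr8:128358823-128358852 (plus strand).
Vegfa: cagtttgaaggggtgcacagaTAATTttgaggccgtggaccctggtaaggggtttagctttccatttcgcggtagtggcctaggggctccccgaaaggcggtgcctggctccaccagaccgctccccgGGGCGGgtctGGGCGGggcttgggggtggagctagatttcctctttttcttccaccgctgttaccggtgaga
Vegfb: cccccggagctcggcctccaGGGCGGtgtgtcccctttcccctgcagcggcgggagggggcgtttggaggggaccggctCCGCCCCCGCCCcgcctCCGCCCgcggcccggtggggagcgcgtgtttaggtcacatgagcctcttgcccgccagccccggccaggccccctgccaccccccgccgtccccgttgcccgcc
Kdr: cgcccggcacagTTCCGGggtagtggggga
Flt1: ctggggaaaggtTATAAAtcgcccCCGCCC
Nrp1: ctagTGACCTTcttcccgcggagagcacag

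The GC box was found in the windows of *Vegfa*, *Vegfb*, *Vegfc*, *Flt1*, *Kdr*, *Flt4* and *Nrp1*, and 35.7% of all windows hold it. The homeodomain core was found only in the *Vegfa* window among the members (27.0% of all windows) and the ETS core only in that of *Kdr* (14.9%). The TATA box was matched only in the *Flt1* window (13.6% of all windows) and the ERR element only in that of *Nrp1* (4.72%). A second *Vegfa* start had the hypoxia response core (19.6%), and the *Tek* window had none of the 6 motifs. No match overlapped another. The matches describe letters in these windows and say nothing of binding.

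The FPKM of a sample summed to between 466059 and 542096. Absolute depth is unknown; relative depth, read from the steps between low values, was 0.692 to 1.14 in TG and 0.943 to 1.41 in WT, with WT replicate 3 set to 1. *Hlx* was 110, 79.6 and 99.5 FPKM in TG and 6.88, 7.35 and 8.14 FPKM in WT, so each TG mouse was far above each WT mouse. The labels give all mice as male, but *Xist*, an RNA of the inactive X chromosome in females, was between 20.2 and 33.6 FPKM in all 6 samples. Its values go against that label in both genotypes alike. Sex was read from *Xist* alone, without genes of the Y chromosome, so it is not settled here. Fat markers were present in every sample, with a summed FPKM of 28300 to 33600 in TG and 24000 to 29700 in WT over 7 adipocyte genes. Most of each sum was *Fabp4*, at 24600 to 29400 FPKM in TG and 19300 to 23500 FPKM in WT. The mean log2(FPKM + 1) of the 7 genes differed by -0.15, TG minus WT. Skeletal muscle genes varied between mice, with summed FPKM of 84.2 to 608 in TG (highest in TG replicate 2) and 7.03 to 126 in WT, with 1 of 7 genes listed at 0 in at least 1 sample, and their part in the results was not tested. In whole tissue, fewer cells of a type and less RNA per cell cannot be told apart.

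Of the 9 members with a row of their own, *Kdr* was higher and *Angpt1* was lower in TG, and 7 did not pass the test. Calls are those of limma on log2(FPKM + 1) with a Benjamini-Hochberg adjusted p under 0.05 over the 11692 loci whose mean FPKM was over 1 in at least 1 genotype. All 9 passed this filter, *Vegfc* only through its WT mean. In the background of all tested loci, 18.6% were called, 11.6% as higher and 7.03% as lower, so that 1 member in each direction is near the background share. The groups did not overlap for 5 of the 9 members, *Kdr*, *Flt1* and *Nrp1* being higher and *Angpt1* and *Vegfc* lower in every TG mouse than in every WT mouse, against 42.9% of all tested loci. An unadjusted limma p under 0.05 was found for 4 of the 9 members and for 36.2% of all tested loci. The median log2 fold change of the members was -0.11, and that of all tested loci was -0.01. A log2 fold change is the difference of mean log2(FPKM + 1), TG minus WT, a scale that understates changes of low genes. For a single gene, an exact permutation test over the 20 arrangements of the mice cannot give a two-sided p under 0.1, so that the calls rest on the spread that limma shares between genes.

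**Figure D1:**
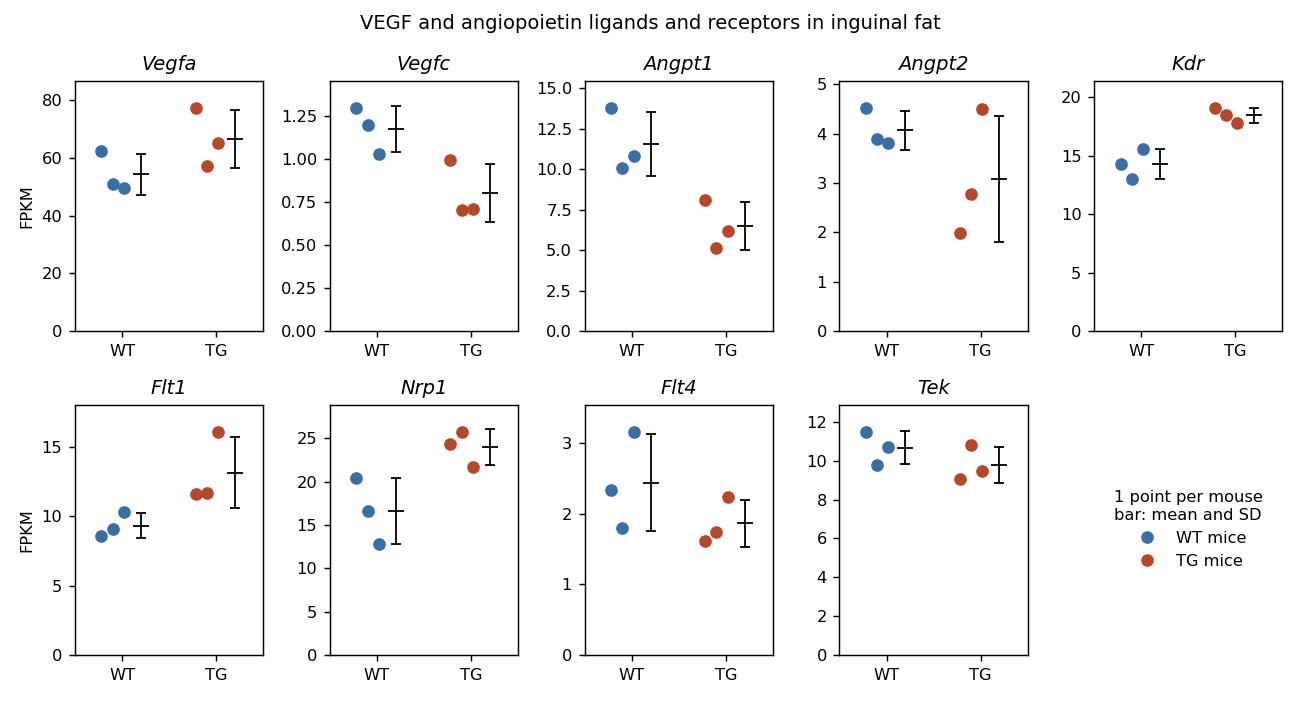
FPKM (vertical axes, each starting at 0) of the 9 members with a row of their own in WT mice (blue) and TG mice (red), 1 point per mouse, with mean and SD as bars. The TG points of *Kdr*, *Flt1* and *Nrp1* all lie above the WT points, those of *Angpt1* and *Vegfc* all lie below them, and the groups of *Vegfa*, *Angpt2*, *Flt4* and *Tek* overlap.

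*Vegfa* (chr17:46016991-46032377, mm10, minus strand) had the highest level of the 9 members in both genotypes and was not called. It was 77.3, 57.2 and 65.2 FPKM in TG and 62.3, 50.8 and 49.6 FPKM in WT, or 66.5 ± 10.1 against 54.2 ± 7.01 FPKM (SD, n = 3 mice each). TG replicates 1 and 3 were above every WT mouse, TG replicate 2 lay below WT replicate 1, and the groups overlapped. Its log2 fold change was 0.29 (standard error 0.14, 95% interval -0.04 to 0.62, limma adjusted p = 0.181). The interval holds no change as well as a rise of the size found for *Kdr*.

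*Vegfb* could be read only together with *Dnajc4*, a gene of the DNAJ co-chaperone family. The shared row (chr19:6981216-6992742) covers both genes, which lie 259 bases apart on the minus strand, so its value is not that of *Vegfb* alone and it was not counted among the members. It stood at 303, 243 and 251 FPKM in TG and 246, 215 and 200 FPKM in WT, or 265 ± 32.4 against 221 ± 23.5 FPKM (SD, n = 3 each). The groups overlapped through TG replicate 2 and WT replicate 1, and the log2 fold change was 0.26 (standard error 0.13, 95% interval -0.04 to 0.57, limma adjusted p = 0.183). After quantile normalization it was -0.05, so its direction depends on the scaling.

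*Vegfc* (chr8:54077531-54186454, plus strand), the lymphatic growth factor, had the lowest level of the members. It was 0.999, 0.703 and 0.709 FPKM in TG and 1.30, 1.20 and 1.03 FPKM in WT. Every TG mouse was below every WT mouse, by a narrow margin between TG replicate 1 and WT replicate 3. TG minus WT came to -0.27 on the log2 scale (standard error 0.13, 95% interval -0.58 to 0.03, limma adjusted p = 0.178), and the gene was not called.

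*Angpt1* (chr15:42424669-42676932, minus strand), the activating ligand of TEK, fell in TG. It was 8.08, 5.17 and 6.22 FPKM in TG and 13.8, 10.1 and 10.8 FPKM in WT, with means of 6.49 ± 1.47 and 11.5 ± 1.94 FPKM (SD, n = 3 each) and a ratio of 0.562. The highest TG mouse was below the lowest WT mouse. The log2 fold change was -0.75 (standard error 0.17, 95% interval -1.15 to -0.35, limma adjusted p = 0.0242). The call was lost without TG replicate 3 (adjusted p = 0.0766, limma), WT replicate 1 (0.0635) or WT replicate 3 (0.0635), and leaving out single mice gave log2 fold changes of -0.90 to -0.62. The locus overlaps the antisense gene *Gm17473*, and the libraries did not keep the strand.

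*Angpt2* was 1.98, 2.77 and 4.49 FPKM in TG and 4.52, 3.88 and 3.80 FPKM in WT. TG replicates 1 and 2 were below every WT mouse, TG replicate 3 was close to the highest WT value, and the groups overlapped. The log2 fold change was -0.36 (standard error 0.21, 95% interval -0.86 to 0.15, limma adjusted p = 0.272); without TG replicate 3 it was -0.59 (adjusted p = 0.0563), and without TG replicate 1 it was -0.15 (0.601). The gene lies inside *Mcph1* on the opposite strand, and the file gives both the span chr8:18595172-18803333, so that reads of one may have been counted for the other. *Mcph1*, a gene of chromosome condensation, was at a like level, between 3.87 and 4.64 FPKM in the 6 samples, with a log2 fold change of -0.06 (limma adjusted p = 0.663).

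*Kdr* (chr5:75933269-75978477, minus strand), the main VEGF-A receptor, rose in TG. It was 19.1, 18.5 and 17.8 FPKM in TG and 14.3, 13.0 and 15.6 FPKM in WT, with means of 18.4 ± 0.631 and 14.3 ± 1.30 FPKM (SD, n = 3 each) and a ratio of 1.29. The 3 TG mice lay close together and above every WT mouse. The log2 fold change was 0.35 (standard error 0.09, 95% interval 0.15 to 0.55, limma adjusted p = 0.0329). Leaving out single mice moved the size little (0.29 to 0.41) but ended the call in 5 of 6 fits: the limma adjusted p was 0.0854, 0.0652 and 0.0786 without TG replicates 1, 2 and 3, and 0.0784 and 0.101 without WT replicates 1 and 2.

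*Flt1* (chr5:147561671-147726126, minus strand), the high-affinity VEGF receptor, was 11.6, 11.7 and 16.1 FPKM in TG and 8.57, 9.10 and 10.3 FPKM in WT. Every TG mouse was above every WT mouse, and TG replicate 3 stood above the other two. The means were 13.1 ± 2.58 and 9.32 ± 0.874 FPKM (SD, n = 3 each), a ratio of 1.41. The log2 fold change of 0.44 (standard error 0.14, 95% interval 0.12 to 0.77) did not pass the limma threshold (adjusted p = 0.0654), and it passed when samples were weighted by quality (0.0269). Its ratio exceeds that of *Kdr*, but its spread in TG is wider.

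*Nrp1* (chr8:128358377-128544592, plus strand), the VEGF co-receptor, had 2 rows at 1 locus. Its own row was 24.4, 25.8 and 21.7 FPKM in TG and 20.4, 16.6 and 12.8 FPKM in WT, and the row shared with *Mir1903*, a microRNA inside the gene, was 30.8, 28.4 and 31.9 FPKM in TG and 23.4, 19.6 and 21.4 FPKM in WT. In both rows every TG mouse was above every WT mouse. The own row had a ratio of 1.44 and fell short of the threshold, its log2 fold change being 0.52 (standard error 0.16, 95% interval 0.15 to 0.90, limma adjusted p = 0.0623). The shared row was called at 0.48 (standard error 0.09, 95% interval 0.27 to 0.70, limma adjusted p = 0.0133). The sum of the rows, an addition made after the values were seen, gave 0.51 (adjusted p = 0.0174). The call of the own row was gained without WT replicate 1 (0.0293), and that of the shared row was lost without TG replicate 3 (0.0554).

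*Flt4* (chr11:49609678-49652739, plus strand), the lymphatic VEGF receptor, was 1.61, 1.74 and 2.23 FPKM in TG and 2.34, 1.80 and 3.16 FPKM in WT. The groups overlapped, with the highest value in WT replicate 3. On the log2 scale the difference was -0.25 (standard error 0.17, 95% interval -0.65 to 0.15, limma adjusted p = 0.318). *Tek* (chr4:94739050-94875050, plus strand), the angiopoietin receptor, was 9.06, 10.8 and 9.48 FPKM in TG and 11.5, 9.80 and 10.7 FPKM in WT. Its groups overlapped too, and the log2 fold change was -0.11 (standard error 0.10, 95% interval -0.34 to 0.11, limma adjusted p = 0.429). The lower bound of that interval does not reach the fall found for *Angpt1*, its ligand.

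**Figure D2:**
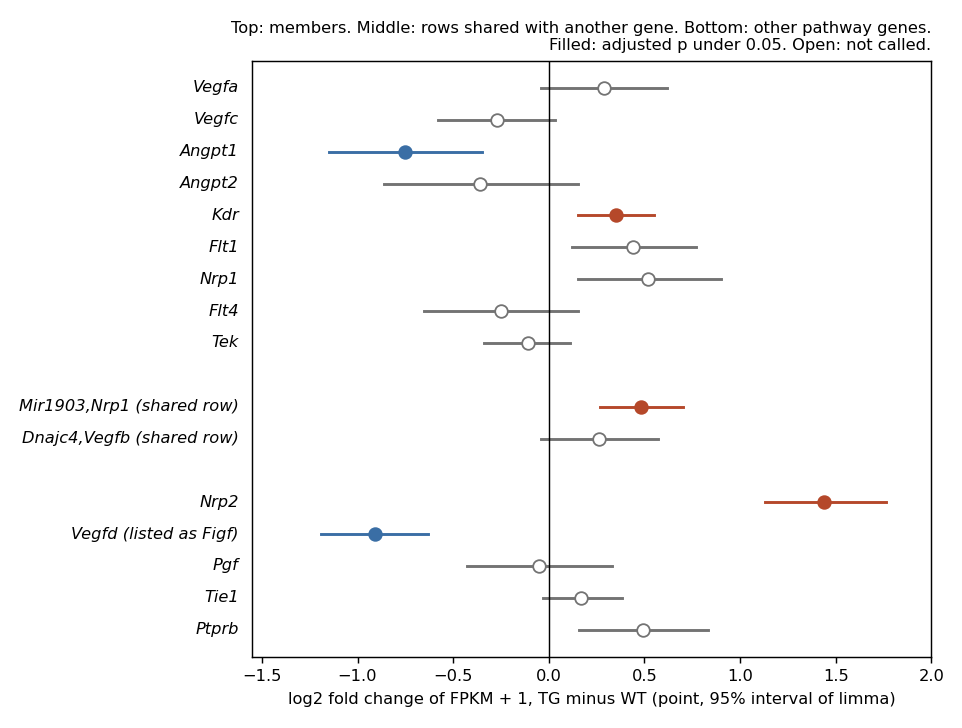
Log2 fold change of FPKM + 1, TG minus WT (horizontal axis), with the 95% interval of limma as a line, for the 9 members, the 2 rows shared with another gene, and other ligands, receptors and a receptor phosphatase of the pathways. Filled points passed an adjusted p of 0.05: *Kdr* (0.35), the shared *Nrp1* row (0.48) and *Nrp2* (1.44) lie to the right, and *Angpt1* (-0.75) and *Vegfd* (-0.91) lie to the left.

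Among the 9 members with a row of their own, the order of the levels was the same at the top and the bottom in the 2 genotypes. It differed in the middle. In WT, *Vegfa* (54.2 FPKM) was followed by *Nrp1* (16.6), *Kdr* (14.3), *Angpt1* (11.5), *Tek* (10.7), *Flt1* (9.32), *Angpt2* (4.07), *Flt4* (2.43) and *Vegfc* (1.18). The ranges of the neighbours from *Nrp1* to *Flt1* overlapped in WT, so the order of these rows there is not resolved. For *Nrp1* only its own row was ranked, which holds a part of the signal of the locus. The row shared with *Mir1903* was 23.4, 19.6 and 21.4 FPKM in WT, above every *Kdr* value there (13.0 to 15.6). In TG the order was *Vegfa* (66.5 FPKM), *Nrp1* (24.0), *Kdr* (18.4), *Flt1* (13.1), *Tek* (9.79), *Angpt1* (6.49), *Angpt2* (3.08), *Flt4* (1.86) and *Vegfc* (0.804), and only *Angpt2* and *Flt4* overlapped as neighbours. *Angpt1* thus stood above *Flt1* by its mean in WT and below it in TG.

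The balance between partners was compared as a ratio of FPKM. The *Angpt2* to *Angpt1* ratio was 0.245, 0.535 and 0.722 in TG and 0.328, 0.385 and 0.352 in WT, and the TG mice lay on both sides of the WT mice. The *Kdr* to *Flt1* ratio was 1.64, 1.58 and 1.10 in TG and 1.66, 1.43 and 1.52 in WT. The ratio of the shared *Vegfb* row to *Vegfa* was 3.92, 4.25 and 3.84 in TG and 3.95, 4.24 and 4.04 in WT, a narrow range across all mice. The differences in mean log2 ratio were 0.36, -0.11 and -0.03 (two-sided exact permutation p = 0.5, 0.8 and 0.6), and the Benjamini-Hochberg adjusted p over the 3 ratios was 0.8 for each. The *Angpt2* to *Angpt1* difference was 0.81 without TG replicate 1 and 0.03 without TG replicate 3.

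Since KDR, FLT1, TEK and much of NRP1 are carried by endothelial cells, the receptors were set beside 14 general endothelial marker genes. The summed FPKM of these markers was 311 to 334 in TG and 324 to 351 in WT, and none was at 0. *Emcn*, a sialomucin of capillaries and veins, was called higher, and *Cldn5*, a tight junction protein, and *Ecscr*, an endothelial surface protein, were called lower. The other 11 were not called, among them the junction proteins *Pecam1* (log2 fold change -0.09, limma adjusted p = 0.632) and *Cdh5* (0.29, adjusted p = 0.0987). The median over the 14 markers was -0.08. Among all tested loci, 11.6% were called higher and 7.03% lower. FPKM is a share of the RNA of the tissue and does not measure vessel density. By staining for CD31, the protein of *Pecam1*, and by lectin labelling, the paper reported an extensive network of capillaries in iWAT of *Hlx* transgenic mice.

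The difference between each receptor and the mean of these markers was then taken in each mouse, on the log2(FPKM + 1) scale. For *Kdr* it was 0.21, 0.06 and 0.01 in TG and -0.34, -0.38 and -0.18 in WT, so that the receptor stood above the marker mean in every TG mouse and below it in every WT mouse. For *Flt1* it was -0.46, -0.56 and -0.13 in TG and -1.02, -0.85 and -0.74 in WT. For *Nrp1* it was 0.55, 0.52 and 0.28 in TG and 0.14, -0.05 and -0.45 in WT. The groups did not overlap for these 3 receptors, and the genotypes differed by 0.39, 0.49 and 0.57. The marker mean itself differed by -0.04 between the genotypes, so these values follow closely the fold changes of the receptors given above. In FPKM, the groups did not overlap for 5 of the 14 markers and for 42.9% of all tested loci. The log2 fold changes of the 14 markers ran from -0.76 (*Cldn5*) to 0.50 (*Emcn*). Against the median of the markers the differences were 0.53, 0.62 and 0.70. *Tek* differed by -0.07 and *Flt4* by -0.21, both with overlap, and *Tek* turned to 0.06 against the marker median. The differences are descriptions with 3 mice per genotype and were given no test.

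**Figure D3:**
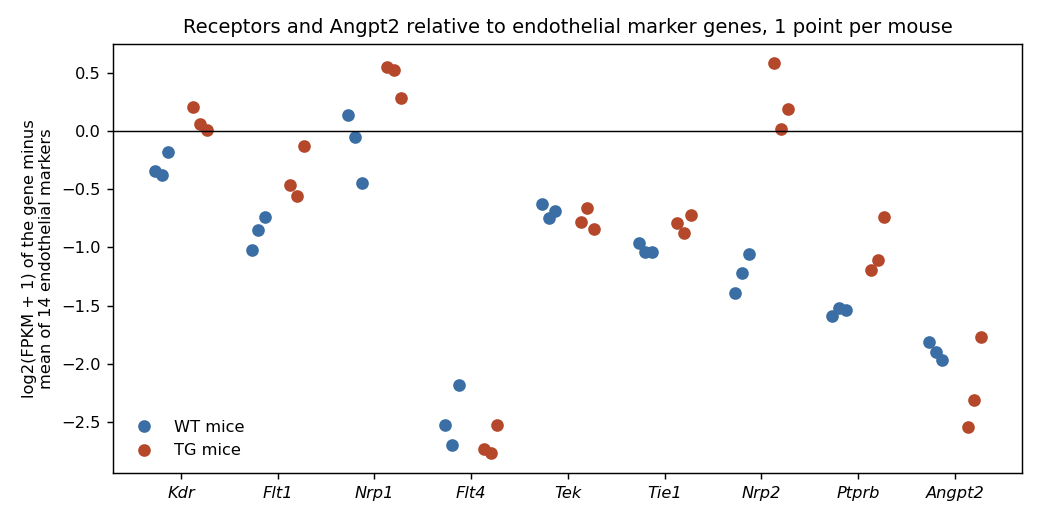
Level of each receptor, of the phosphatase gene *Ptprb* and of *Angpt2* relative to endothelial markers (vertical axis, log2(FPKM + 1) of the gene minus the mean of 14 markers), 1 point per mouse, WT in blue and TG in red. The points of *Kdr*, *Flt1*, *Nrp1*, *Tie1*, *Nrp2* and *Ptprb* separate by genotype, and those of *Flt4*, *Tek* and *Angpt2* do not.

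Other cell types that carry members were read from their marker genes. Of the 10 pericyte and smooth muscle markers, cells that supply angiopoietin-1, *Kcnj8*, a potassium channel gene, was called higher and none was called lower, and it alone had an unadjusted limma p under 0.05. The summed FPKM of the 10 genes was 184 to 291 in TG and 218 to 303 in WT, none was at 0, and *Pdgfrb*, the pericyte receptor, had a log2 fold change of -0.11 (limma adjusted p = 0.469). Beside the values of *Flt4* and *Vegfc* stand the lymphatic markers. Their sum over 6 genes was 16.0 to 31.8 FPKM in TG and 27.2 to 45.8 FPKM in WT, with none at 0. Most of it came from *Lyve1*, a hyaluronan receptor, and *Pdpn*. Of the 4 tested, *Mmrn1* alone was called, as lower (-0.91, limma adjusted p = 0.00457). It passed the filter only through its WT mean (1.95 FPKM, against 0.564 FPKM in TG). *Lyve1* (-0.48, limma adjusted p = 0.32) and *Pdpn* (-0.47, adjusted p = 0.21) were not called. *Prox1*, the lymphatic master regulator, was under the filter, at 0.168 to 0.275 FPKM in TG and 0.454 to 1.02 FPKM in WT. Of 8 macrophage markers, 4 were called lower and 4 were not called, with sums of 107 to 139 FPKM in TG and 176 to 221 FPKM in WT, and none was at 0. Among all tested loci, 11.6% were called higher and 7.03% lower. The part of these cells in the values of the members was not tested.

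Other genes of the pathways were taken from 4 lists with 58 genes in all, of which 47 were tested, 9 were called higher and 6 lower. The median log2 fold change of the 47 was 0.02. Among all tested loci, 11.6% were called higher and 7.03% lower, and these shares stand beside the counts of each list below. Among 14 tested ligands, receptors and signalling partners of the VEGF and TIE pathways, 2 were higher and 3 lower, with a median of -0.11. *Nrp2*, the neuropilin known from lymphatic and venous endothelium and a receptor of VEGF-C and semaphorins, was 24.8, 18.0 and 20.3 FPKM in TG and 6.38, 6.80 and 8.01 FPKM in WT. Each TG mouse was above each WT mouse by more than the whole range of WT, and the ratio was 2.98 (log2 fold change 1.44, standard error 0.13, limma adjusted p = 0.00108). *Vegfd*, listed under its older symbol *Figf* and like VEGF-C a ligand of FLT4, was 13.0, 15.4 and 11.3 FPKM in TG and 27.7, 24.2 and 24.7 FPKM in WT. It fell to a ratio of 0.518 without overlap (log2 fold change -0.91, standard error 0.12, limma adjusted p = 0.00367). The calls of *Nrp2* and *Vegfd* were kept under all 14 alternative settings.

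The other calls of this list were smaller or less steady. *Shb*, an adaptor protein of KDR signalling, was higher (0.35, limma adjusted p = 0.0455), and *Plcg2*, a phospholipase of blood cells, was lower (-0.82, adjusted p = 0.0492), and each lost its call in 8 of 14 settings, 5 of which left out a mouse. *Dok2*, an adaptor that binds TEK and is abundant in blood cells, was lower (-0.38, adjusted p = 0.0184). *Pgf*, the placental growth factor that binds FLT1, was not called (-0.05, limma adjusted p = 0.844), nor was *Tie1*, the partner of TEK (0.17, adjusted p = 0.20). *Ptprb*, the phosphatase that acts on TEK, had 6.61, 7.66 and 10.2 FPKM in TG and 5.43, 5.33 and 5.48 FPKM in WT and just missed the threshold (0.49, limma adjusted p = 0.0519). *Ptprb* was named after its values were seen.

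Of 10 tested genes of oxygen sensing and of the PGC-1 and ERR regulators of *Vegfa*, 4 were higher and none lower, with a median of 0.46. Among all tested loci, 11.6% were called higher. An unadjusted limma p under 0.05, in either direction, was found for 8 of the 10, against 36.2% of all tested loci. Of these 8, the oxygen sensing genes *Vhl* (-0.29, limma adjusted p = 0.0852) and *Egln2* (-0.28, adjusted p = 0.0899) were lower and not called. The others of the 8 were higher. The 4 called genes were *Ppargc1a*, *Ppargc1b*, *Esrrg* and *Egln1*, of which only *Egln1* is a gene of oxygen sensing. *Esrrg* was tested only through its TG mean. *Esrra* was not counted, as its only row is shared with *Prdx5*. That row was called higher (0.80, limma adjusted p = 0.0183). *Ppargc1b*, a coactivator of mitochondrial genes, rose from 4.16 ± 0.496 to 13.8 ± 4.29 FPKM (SD, n = 3 each; log2 fold change 1.49, limma adjusted p = 0.00363). *Esrrg*, an orphan nuclear receptor, was 3.62, 2.07 and 2.95 FPKM in TG and 0.341, 0.473 and 0.415 FPKM in WT, where it was under the filter (log2 fold change 1.44, adjusted p = 0.00237). *Ppargc1a*, the coactivator known to drive *Vegfa* in muscle, rose from 3.43 ± 0.277 to 5.30 ± 0.377 FPKM (SD, n = 3 each; log2 fold change 0.51, limma adjusted p = 0.0122). *Egln1*, a prolyl hydroxylase that marks HIF for decay and is itself a HIF target, also rose (0.80, adjusted p = 0.00292). *Hif1a* was between 21.5 and 22.9 FPKM in all 6 mice (0.02, limma adjusted p = 0.875), and *Epas1*, the endothelial HIF subunit, was not called (0.40, adjusted p = 0.0824), although it passed in 3 of 14 settings, 1 of them without TG replicate 2 (0.0467). *Vegfa* itself had 0.29, below the 4 called genes of this list. Those 4 were selected by their calls, so this order cannot tell whether *Vegfa* changed less than its regulators. The limma interval of *Vegfa* (-0.04 to 0.62) held the value of *Ppargc1a* (0.51), but not those of *Egln1*, *Esrrg* and *Ppargc1b*.

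Among 14 tested tip cell and Notch genes, 3 were higher and 1 lower, with a median of 0.10. *Apln*, a peptide of sprouting endothelium, rose from 1.94 ± 0.154 to 3.70 ± 0.467 FPKM (SD, n = 3 each; log2 fold change 0.67, limma adjusted p = 0.00831). *Esm1*, a secreted tip cell proteoglycan, was 1.13, 1.17 and 1.02 FPKM in TG and 0.271, 0.278 and 0.453 FPKM in WT, so that only TG passed the filter (0.66, adjusted p = 0.0151; 0.054 without WT replicate 2). *Pdgfb*, which recruits pericytes, was higher as well (0.52, adjusted p = 0.0109). *Jag1*, a Notch ligand, fell from 8.27 ± 0.481 to 5.13 ± 0.544 FPKM (SD, n = 3 each; -0.60, limma adjusted p = 0.00729).

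Of 9 tested secreted inhibitors of angiogenesis, none was higher and 2 were lower, with a median of -0.19, and 3 had an unadjusted limma p under 0.05, a share near the 36.2% of all tested loci. *Thbs2* was 6.66, 10.3 and 8.11 FPKM in TG and 22.9, 19.3 and 21.6 FPKM in WT, a ratio of 0.392 with no overlap (log2 fold change -1.27, limma adjusted p = 0.00239). *Serpinf1*, which encodes PEDF, fell from 341 ± 43.5 to 245 ± 20.9 FPKM (SD, n = 3 each; -0.47, adjusted p = 0.0424) and lost the call in 7 of 14 settings, 5 of which left out a mouse. *Thbs1* ranged from 3.04 to 9.82 FPKM within TG alone, and was not called (-0.21, limma adjusted p = 0.697).

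**Figure D4:**
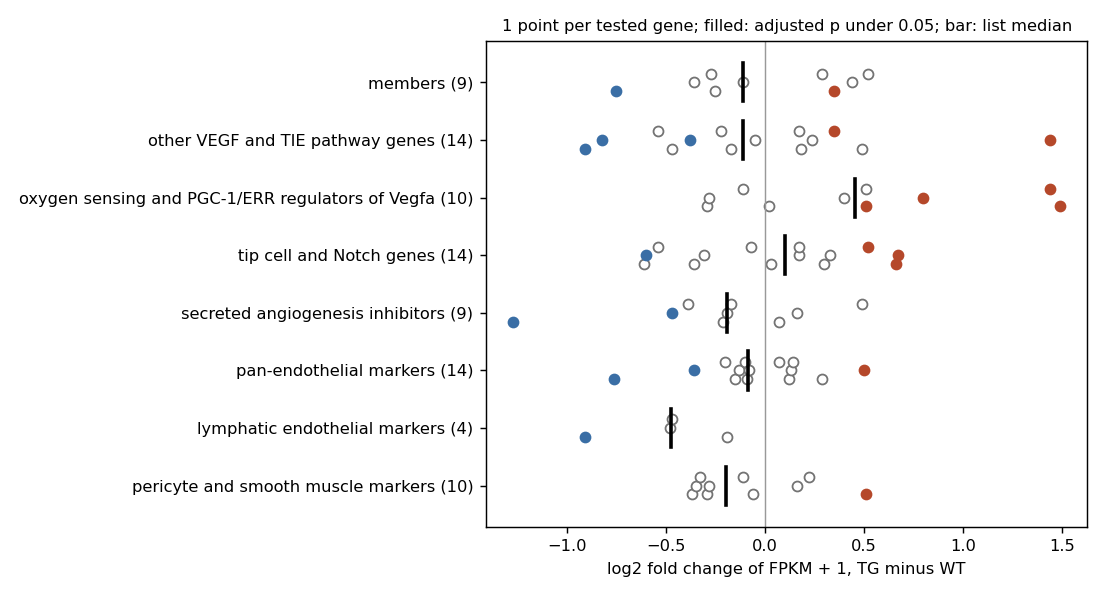
Log2 fold change of FPKM + 1, TG minus WT (horizontal axis), 1 point per tested gene, for the members, the 4 lists of pathway genes and 3 lists of vessel cell markers, with the number tested in brackets and the list median as a bar. Filled points passed an adjusted p of 0.05, and their numbers are given here as right and left. They are 1 and 1 for the members and 2 and 3 for the other VEGF and TIE genes. The oxygen sensing and PGC-1/ERR list has 4 and 0, the tip cell and Notch list 3 and 1, and the inhibitors 0 and 2. The markers have 1 and 2 (endothelial), 0 and 1 (lymphatic) and 1 and 0 (pericyte and smooth muscle).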

How the data were processed

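RNA of iWAT was sequenced from 3 TG and 3 WT mice, 1 library per mouse. The authors mapped single-end reads to mm10 with TopHat and quantified genes with Cufflinks, and the deposited values are FPKM per gene and sample. The submitters' processing notes name CASAVA 1.8.2, Bowtie2 2.1.0, TopHat2 2.0.9 and Cufflinks 2.2.1, and the annotation is not given in the sources used here. Libraries were unstranded. Some loci carry several symbols (433 loci) and their reads were not divided. Absolute depth is unknown, and the number of mice limits precision.

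From these values log2(FPKM + 1) was computed and tested with limma 3.58.1 in R 4.3.3 (eBayes with trend, two-sided, no covariates) over 11692 loci, those whose mean in TG or in WT was above 1 FPKM, with Benjamini-Hochberg adjustment. The study's own test, Cuffdiff, needs reads. Ratios were tested by exact permutation. The script was tested on simulated data. Alternatives were a pseudocount of 0.1, the filter dropped or set on the mean over all 6 mice, scaling by quantiles or by median ratios, sample quality weights, eBayes with no trend, a block for the replicate number, and fits without single mice. Same-numbered TG and WT mice did not deviate together (correlations 0.0129 to 0.0701), so the numbers were not taken as pairs.

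The members, the lists and the tests were chosen with earlier results of these data known, and the motifs after the values were seen. Named genes were the members, up to 2 largest rises and 2 largest falls called in each pathway list, and a few fixed genes. The other calls of these lists, *Ptprb*, *Vhl*, *Egln2*, *Pdpn*, *Fabp4* as a marker and the called cell markers were named after their values were seen. Gene positions, strands and overlaps beyond the file's loci come from GENCODE of the same build. Figures were drawn with matplotlib 3.10.9.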

Additional observations from a re-analysis of the deposited data

How the results depend on the processing

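In the 6 fits without 1 mouse, the number of members called ranged from 0 to 1, higher from 0 to 1 and lower from 0 to 1. Pathway genes called lower ranged from 3 to 6, and all loci called from 1141 to 2201 (higher 780 to 1295, lower 329 to 906). *Kdr* and *Angpt1* were not both called in any of these fits, which have fewer mice; neither was without TG replicate 3 or without WT replicate 1, where *Nrp1* was the member called. Members called higher were 2 with sample quality weights (*Kdr* and *Flt1*), 2 with the replicate block and 2 with the shared rows counted, an alternative chosen after seeing the data. With the replicate block *Flt1* (limma adjusted p = 0.0376), *Nrp1* (0.0449) and *Angpt1* were called and *Kdr* was not (0.0616), and 1886 loci were called. No sample correlated best with the sample of its own number in the other genotype. Values that changed sign, none of them called, were the shared *Vegfb* row (-0.05) and *Hif1a* (-0.01) with quantile normalization, *Pgf* (0.08) and *Thbs1* (0.09) with sample quality weights, and *Tek* against the marker median (0.06). Without 1 mouse the ranges were -0.17 to 0.07 for *Pgf* (0.02 and 0.0 among them), -0.0 to 0.04 for *Hif1a*, -0.54 to 0.17 for *Thbs1*, -0.20 to 0.0 for *Pecam1*, and, on the log2 scale, -0.07 to 0.0 for the ratio of the *Vegfb* row to *Vegfa* -0.22 to 0.07 for *Kdr* to *Flt1* and 0.03 to 0.81 for *Angpt2* to *Angpt1*. The cause was not tested. Of 471 values for single genes under the alternatives, 414 kept direction and call, 35 lost the call, 9 gained one (3 of them *Epas1*), 11 changed sign and 2 moved by more than the spread between mice. Relative depth was lowest in TG replicates 1 and 3, so *Vegfc*, *Flt4* and *Angpt2* are least precise there.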

Other observations

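The tested loci whose log2(FPKM + 1) ran most like that of *Vegfa* over the 6 mice were *Cetn2*, a centrosome gene (Pearson r 0.989), *Chmp2b*, of the ESCRT machinery (0.989), and *Eif3l*, a translation factor subunit (0.985). Those most like *Kdr* were *Hdlbp* (0.999), *Flii* (0.991) and *Sox13* (0.987), an RNA-binding protein, an actin regulator and a transcription factor. None of these 6 was called between the genotypes (limma adjusted p 0.0753 to 0.38). The 6 points share 2 genotypes and the same libraries, and the loci were picked as the most alike of 11692, so the values describe likeness and no more.

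Of the lists of other cell types, 6 of 8 brown adipocyte markers were called higher, with a median log2 fold change of 2.80, and none lower. Among all tested loci, 11.6% were called higher and 7.03% lower. Of the 7 general adipocyte markers tested, 1 was lower and none higher (median -0.02). None of 8 progenitor and fibroblast markers (median -0.18), 7 epithelial markers (median -0.39) or 7 skeletal muscle markers (median 2.17) passed the limma threshold. Of them, 2, 2 and 1 were under an unadjusted p of 0.05, against 36.2% of all tested loci. Of 8 lymphocyte markers, 1 was called lower, and the median of the 8 was -0.50.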
